A study of Arabidopsis thaliana with 4 samples.

Results

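Xyloglucan endotransglucosylase/hydrolases, the XTH family, are secreted enzymes that act on xyloglucan, a polysaccharide that coats and links the cellulose fibrils of the plant cell wall. Most cut a xyloglucan chain and join the new end to another chain, so that the wall can take in new material while a cell expands, and a few mainly hydrolyse the chain. The family is large in Arabidopsis, its members are made in different organs, and several respond to auxin, brassinosteroid, gibberellin or touch. The members described here are the genes whose symbol is XTH followed by a number and that had a probe set assigned to 1 gene in the platform's table. They are XTH16, XTH18, XTH19, XTH20, XTH21, XTH26, XTH29, XTH32 and XTH33. These 9 genes each had 1 probe set, among 13350 genes with such a probe set and 22746 probe sets tested in all. The RefSeq gene table holds 33 XTH genes by symbol or synonym, and the other 24 are not members here.

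The values come from 4 single-channel oligonucleotide arrays hybridised with RNA of whole 14-day-old Arabidopsis seedlings of the Col strain. All seedlings were max3 mutants, which lack a carotenoid-cleaving enzyme of strigolactone synthesis and so make little of these branching-inhibiting hormones. For 2 arrays they had been given GR24, a strigolactone analogue, at 1 µM for 90 min, and for the other 2 arrays the solvent DMSO as mock treatment over the same time. Every group thus carries the mutation, and no wild type is part of the comparison, so a difference is one between treatments within a strigolactone-deficient mutant. The level of the mutated gene is not analysed here, since no probe set was assigned to it by name in the tables used. Replicates 1 and 2 of each treatment stem from 2 independent analyses, each begun with its own seedlings, and arrays with the same replicate number were compared as a pair. The array medians lay between 7.03 and 7.06 on the log2 scale, and 2 arrays per group limit the precision of every value.

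The labelled tissue was checked with markers. All 7 green shoot markers with a named probe set, the photosynthesis genes psbA, psaA, psaB, psbC, rbcL, LHCB4.1 and LHCB4.2, were bright, the lowest of them, rbcL, with a mean log2 value at percentile 80.9 of all probe sets. Of the 4 named root markers, PYK10, a beta-glucosidase of root endoplasmic reticulum bodies, was bright too (log2 values from 13.10 to 13.26), while the root hair genes EXPA7, EXPA18 and XTH26 were dim (log2 values from 4.09 to 5.66). The labels name whole seedlings, so a value is an average over roots and shoots. In such RNA, fewer cells of a type and less transcript per cell cannot be told apart.

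With GR24, XTH33, XTH19 and XTH32 had the lowest values relative to mock, with log2 differences of -0.50, -0.50 and -0.42, that is 0.709, 0.706 and 0.749 of the mock level. No XTH gene passed the test across all probe sets. XTH16 had the highest difference of the family at 0.26. The limma fit held treatment and replicate number together, over all 22746 probe sets, and a call needed an adjusted p under 0.05. It called 0 of 9 members in either direction, against 0.303% of all probe sets (69 of 22746). At an unadjusted p under 0.05 it held 4 members, XTH33, XTH19 and XTH32 below mock and XTH16 above it, against 7.47% of all probe sets.

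XTH33 differs from the typical family member in that it carries a predicted membrane-spanning segment and is held at the plasma membrane. Its log2 values were 8.38 and 8.63 with GR24 in replicates 1 and 2, against 8.80 and 9.20 with mock. Both GR24 arrays lay below both mock arrays, the only such case among the 9 members, while 10.2% of all probe sets were separated in this direction. The difference was -0.42 in replicate 1 and -0.57 in replicate 2, with a mean of -0.50 ± 0.10 (moderated SE, n = 2 pairs, 95% interval -0.73 to -0.26). Its adjusted p was 0.135 in the limma fit. Of all probe sets, 0.576% had a difference as low or lower.

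XTH19 belongs to a root-expressed subgroup with XTH18 and XTH20 and is known as an auxin-induced member. Its log2 values were 8.96 and 9.74 with GR24, against 9.65 and 10.06 with mock, in replicates 1 and 2. Each GR24 array was below the mock array of its own number, but the treatments overlapped, since GR24 replicate 2 was above mock replicate 1. The pair differences of -0.68 and -0.32 were the least alike among the members with an unadjusted p under 0.05. The mean was -0.50 ± 0.12 (95% interval -0.77 to -0.23, adjusted p = 0.194 in limma).

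XTH32 is, with XTH31, a member of the small clade in which hydrolysis of xyloglucan has been described. Its log2 values were 10.18 and 10.95 with GR24, against 10.60 and 11.36 with mock. The order over the arrays was the same as for XTH19, with GR24 below mock inside each replicate number and replicate 2 above replicate 1 throughout. The pair differences of -0.43 and -0.41 were nearly equal, and their mean was -0.42 ± 0.10 (95% interval -0.65 to -0.19, adjusted p = 0.209 in limma).

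XTH16 had log2 values of 10.80 and 10.91 with GR24, against 10.45 and 10.74 with mock. Both GR24 arrays lay above both mock arrays, as for 12.9% of all probe sets. The pair differences were 0.35 and 0.16, with a mean of 0.26 ± 0.11 (95% interval 0.02 to 0.50, adjusted p = 0.618 in limma).

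The 2 other members of the root-expressed subgroup had smaller differences. XTH18, which lies next to XTH19 in the RefSeq gene order of TAIR10.1 with XTH24 on its other side, had log2 values of 12.44 and 12.63 with GR24, against 12.56 and 12.78 with mock. Its difference was -0.13 ± 0.10 (95% interval -0.36 to 0.09), so GR24 was lower within each pair but the treatments overlapped. XTH20, which is expressed in root vascular tissue, had 8.36 and 8.37 with GR24, against 8.25 and 8.26 with mock, the tightest replicates of the family. Its pair differences were both 0.11, and the interval of -0.12 to 0.34 includes 0. Whether probes of such closely related genes also bind each other's transcripts was not tested.

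**Figure D1:**
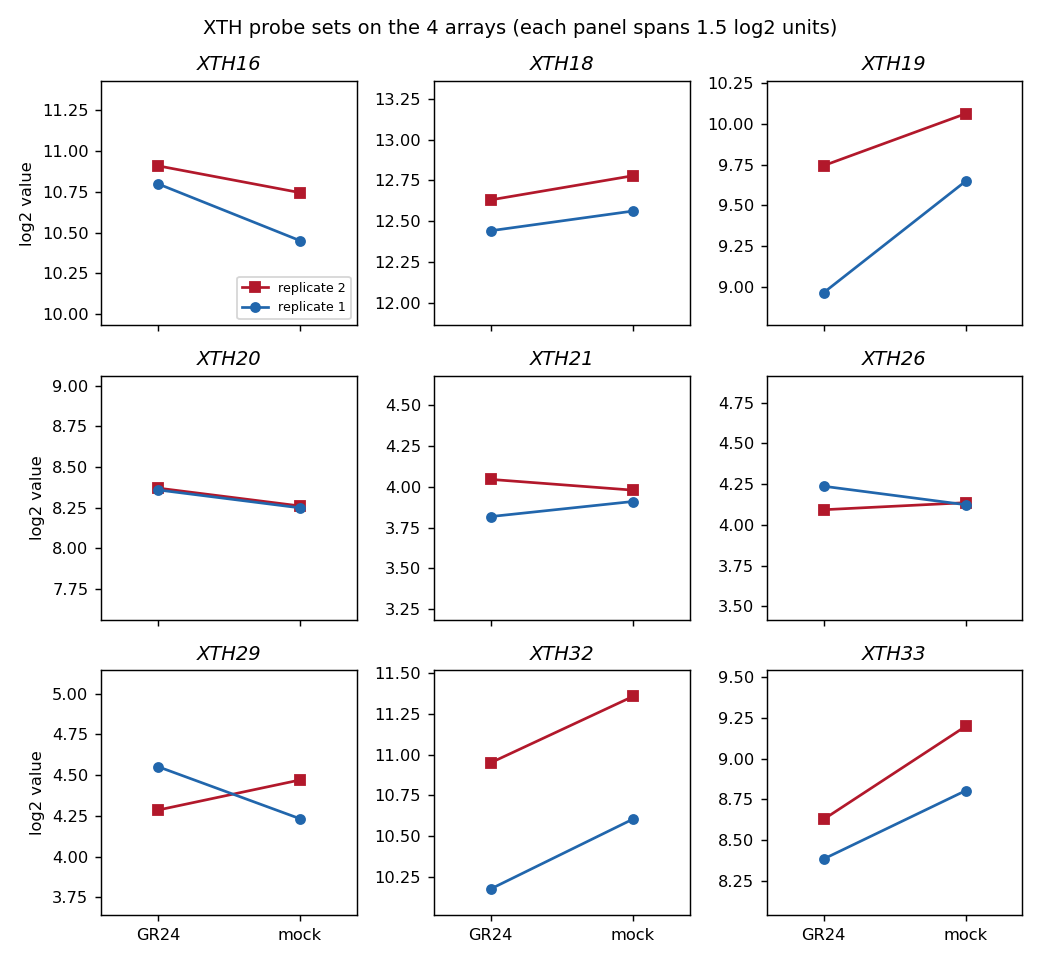
Log2 values of the 9 XTH probe sets with GR24 (left in each panel) and mock (right). A line joins the arrays of the same replicate number, with red squares for replicate 2 and blue circles for replicate 1. All panels span the same width in log2 units, but each is centred on its own values. In XTH19, XTH32 and XTH33, and by less in XTH18, both lines are lower at GR24 and replicate 2 lies above replicate 1. The lines of XTH20 coincide.

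The other 3 members were dim and had differences of opposite sign in the pairs. XTH21, a root gene linked to primary root growth, had log2 values of 3.82 and 4.05 with GR24, against 3.91 and 3.98 with mock. XTH26, a gene of root hairs, had 4.24 and 4.09 with GR24, against 4.12 and 4.14 with mock. XTH29, from the clade that also holds XTH27, had 4.55 and 4.29 with GR24, against 4.23 and 4.47 with mock. Their mean differences lay between -0.01 and 0.07, with intervals that reached from -0.25 to 0.37 at the widest. XTH21 and XTH26 were among the dimmest 20% of probe sets and XTH29 lay just above that limit, at percentile 20.5. The gene listed as EXGT-A3, which carries XTH27 as a synonym and so falls outside the naming rule, had 11.89 and 11.79 with GR24, against 11.84 and 11.81 with mock. Its difference was 0.02 ± 0.10 (95% interval -0.21 to 0.25, adjusted p = 0.996 in limma).

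Counted over the family, 4 of 9 members were lower and 2 higher with GR24 in both pairs, and 3 had opposite signs. Among all probe sets, 23.3% were lower in both pairs, 28.7% higher in both and 48.0% opposite. The median difference of the 9 members was -0.01, against 0.01 over all probe sets. Below the family's median lay XTH19, XTH33, XTH32 and XTH18, and the other 5 members ranged from -0.01 to 0.26.

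Calls in this comparison depended on how the variance of each probe set was moderated. With limma's default prior in place of one fitted by maximum likelihood, XTH33 (adjusted p = 0.0278) and XTH19 (adjusted p = 0.0360) passed and XTH32 (adjusted p = 0.0763) did not, where 1.24% of all probe sets were called. Without pairing, 0 members passed, and 0 of all 22746 probe sets passed either. In that fit 1 member had an unadjusted p under 0.05, against 341 of the 22746 probe sets. The adjusted p-values of XTH33, XTH19 and XTH32 were all 1 in limma, in a fit that called nothing.

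**Figure D2:**
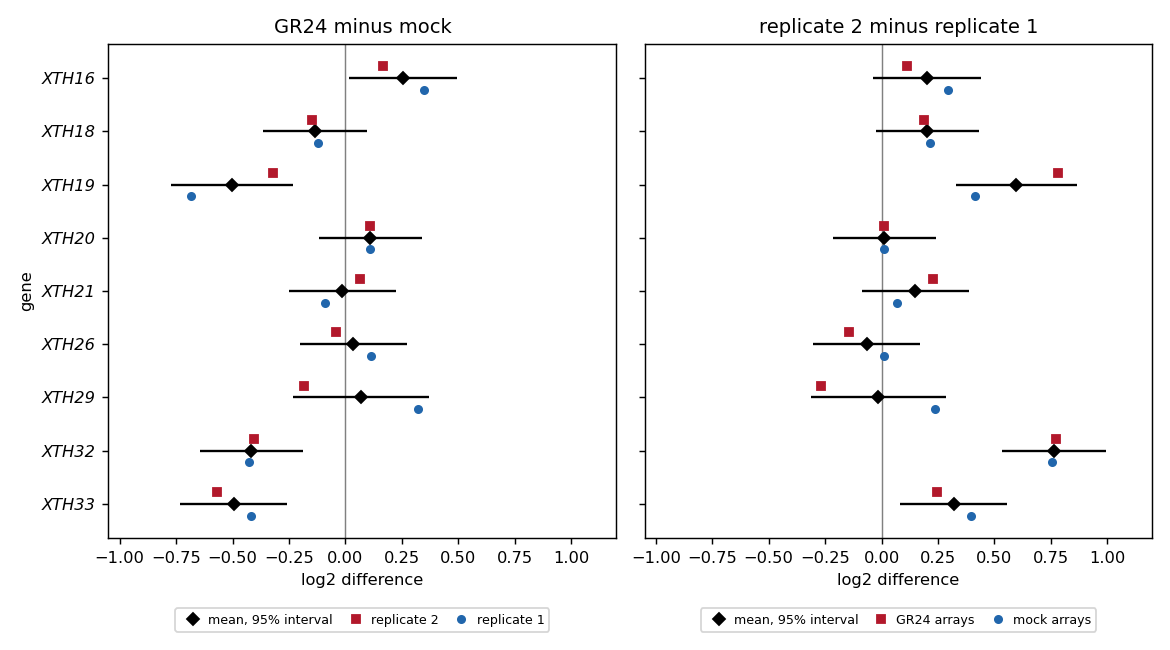
Log2 differences of each XTH gene for GR24 minus mock (left) and replicate 2 minus replicate 1 (right), as the mean with its moderated 95% interval (black) and the 2 single differences behind it (red squares, blue circles). The intervals of XTH19, XTH32 and XTH33 lie below 0 on the left and above 0 on the right.

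XTH32 and XTH19 also differed between the replicate numbers, which mark the independent seedling preparations and any array processing that went with them; these cannot be told apart. With treatment held constant, they were higher in replicate 2 than in replicate 1 by 0.76 and 0.60 on the log2 scale, that is 1.70-fold and 1.51-fold. These 2 of 9 members passed the test, both higher, where 16.7% of all probe sets passed (8.14% higher and 8.59% lower). Their differences between treatments were -0.42 and -0.50, and whether the 2 kinds of difference are unequal in size was not tested.

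XTH32 had log2 values of 10.95 and 11.36 in replicate 2 (GR24 and mock), against 10.18 and 10.60 in replicate 1. Both replicate 2 arrays lay above both replicate 1 arrays, as for 26.3% of all probe sets. The difference was 0.77 between the GR24 arrays and 0.75 between the mock arrays, with a mean of 0.76 ± 0.10 (moderated SE, 95% interval 0.54 to 0.99, adjusted p = 0.00272 in limma). XTH19 had 9.74 and 10.06 in replicate 2, against 8.96 and 9.65 in replicate 1, with a mean difference of 0.60 ± 0.12 (95% interval 0.33 to 0.87, adjusted p = 0.0128 in limma). Its groups did not overlap. With single arrays left out and no block, the difference ranged from 0.55 to 0.98 for XTH32. For XTH19 it ranged from 0.26 without GR24 replicate 1 to 0.94 without mock replicate 1. Such fits keep a lone array for a replicate number, so only the size of the difference is given.

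Of the other members, XTH33 had a difference of 0.32 ± 0.10 and an adjusted p of 0.0687 in limma. It passed with limma's default prior (adjusted p = 0.0453), under which 21.8% of all probe sets were called. XTH16, XTH18 and XTH21 had differences of 0.20, 0.20 and 0.15, and XTH20, XTH26 and XTH29 lay between -0.07 and 0.01. In all, 7 of 9 members were higher in replicate 2 within both treatments, against 32.1% of all probe sets, and none was lower in both. The median of the family was 0.20, against -0.02 over all probe sets. XTH18 and XTH21 joined XTH32 and XTH19 in having both replicate 2 arrays above both replicate 1 arrays.

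Other transcripts moved with the replicate number too. The root markers averaged 7.09 and 7.12 in replicate 2 (GR24 and mock), against 6.80 and 6.76 in replicate 1. Of these 4, EXPA7 (0.67) and EXPA18 (0.58) passed the test, while PYK10 (0.11) and XTH26 (-0.07) did not. The green shoot markers averaged 11.31 and 11.50 in replicate 2, against 11.69 and 11.30 in replicate 1. Of these 7 only psbA passed (-1.10, adjusted p = 0.000982 in limma). The others lay on both sides of 0, from -0.15 for psaB to 0.30 for LHCB4.1. For psaA, psbC and rbcL the sign differed between the GR24 arrays and the mock arrays, so the shoot markers did not move together. The part of root and shoot content in the XTH differences was not tested.

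**Figure D3:**
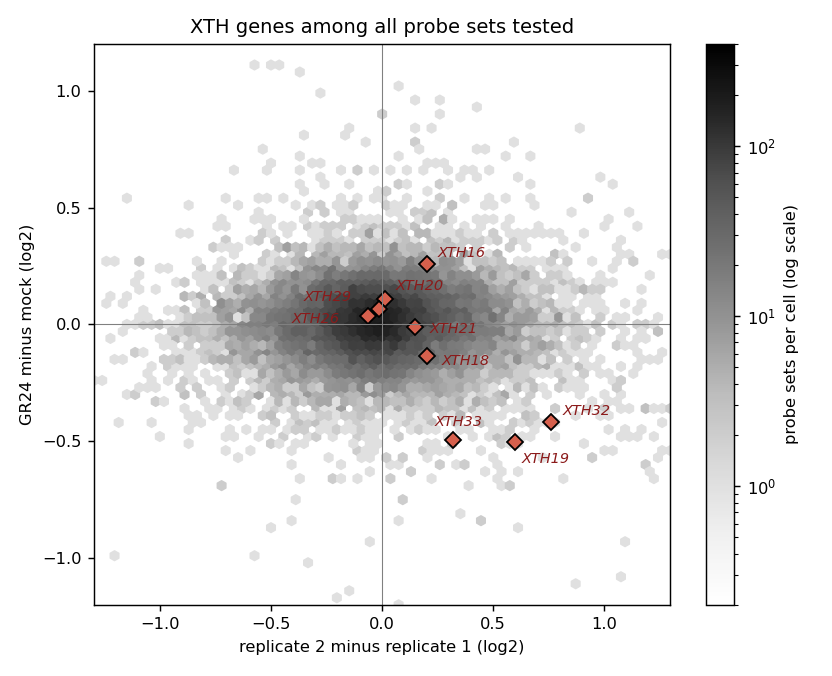
GR24 minus mock (vertical, log2) against replicate 2 minus replicate 1 (horizontal, log2) for all probe sets tested, shaded by their number on a log scale, with the 9 XTH genes as red diamonds; 78 probe sets lie beyond the axes. XTH19, XTH32 and XTH33 sit at the lower right edge of the cloud, and the other members lie inside it.

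Genes with the most similar pattern over the 4 arrays were sought among 13349 other named genes, by the distance between log2 values after each was centred on its own mean. For XTH33 the nearest was ATSPS4F, a sucrose-phosphate synthase gene, at a distance of 0.0608. It had log2 values of 5.81 and 6.02 with GR24, against 6.28 and 6.63 with mock. The transcription factor gene BZIP61 (0.0975) and AT1G76110 (0.126) followed. For XTH19 the nearest were AT5G42760 (0.104), AT3G23170 (0.111) and AT2G38640 (0.116). For XTH32 they were AT1G65490 (0.113), AtLEA4-1 (0.117), a late embryogenesis abundant gene, and AT1G03440 (0.160). The GR24 differences of these 9 genes lay between -0.54 and -0.38, and each had an adjusted p above 0.1 in limma. With 4 arrays in the comparison, such likeness is a description only.

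Other genes of wall synthesis and loosening were counted from lists of names, 49 genes in 5 lists. With GR24, 0 of the 49 passed the limma test, against 0.303% of all probe sets. At an unadjusted p under 0.05 it held 7, against 7.47% of all probe sets. The median difference of the 49 was 0.01. The 19 measured expansins, proteins that loosen the wall without cutting its polymers, had a median of -0.01. Among them EXPA8 had the lowest difference of all 49, with 7.72 and 8.01 with GR24, against 8.62 and 8.40 with mock. Its difference was -0.64 ± 0.13 (adjusted p = 0.130 in limma). The treatments did not overlap, as for 10.2% of all probe sets in this direction.

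The pectin list was small and lay on the other side of 0. Of 31 pectin-modifying genes listed in the gene table, 4 were measured. All 4 were higher with GR24 in both pairs, as were 28.7% of all probe sets, with a median difference of 0.30. ATPMEPCRB, a pectin methylesterase gene, had log2 values of 8.51 and 8.55 with GR24, against 7.88 and 8.36 with mock. Its difference was 0.40 ± 0.13, and the adjusted p of the 4 genes ranged from 0.408 to 0.605 in limma.

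Of 22 listed genes that make or trim the xyloglucan on which XTH enzymes act, 6 were measured. They were glucan synthase genes of the CSLC family, which build the backbone, and TBL21, of a family that holds polysaccharide acetyltransferases. Their mean differences with GR24 lay between -0.17 and 0.01, but the pairs were unlike. The median was 0.01 in replicate 1 and -0.23 in replicate 2. In 4 of the 6 the pairs had opposite signs, as for 48.0% of all probe sets. CSLC12 had the largest in size, -0.17 ± 0.10 (adjusted p = 0.799 in limma). Among 5 cellulose synthesis genes CSLA03, a mannan synthase family gene that the name rule put there, had -0.23 ± 0.10. Among 15 other glycosyl hydrolase genes, mostly endoglucanases of family GH9, GH9B12 had 0.22 ± 0.10. No probe set was assigned by name to the wall glycoprotein list.

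Between the preparations, 13 of the 49 wall genes passed the limma test as higher in replicate 2 and 0 passed as lower. Of all probe sets, 8.14% passed as higher and 8.59% as lower. The 13 wall genes comprised 8 of 19 expansins, 4 of 15 glycosyl hydrolase genes and 1 of 6 xyloglucan synthesis genes, TBL21 (0.50 ± 0.12). EXLA2 (0.76 ± 0.10), EXPA9 (0.76 ± 0.11) and EXPA7 (0.67 ± 0.10) led the expansins. GH9B13 (0.86 ± 0.10), GH9C2 (0.89 ± 0.12) and GH9B8 (0.90 ± 0.12) led the hydrolases. The differences of XTH32 and XTH19 were thus shared in direction by all 13 wall genes that passed. Fits with an array left out had no block and kept a lone array for a replicate number, so their calls are not counted here.

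**Figure D4:**
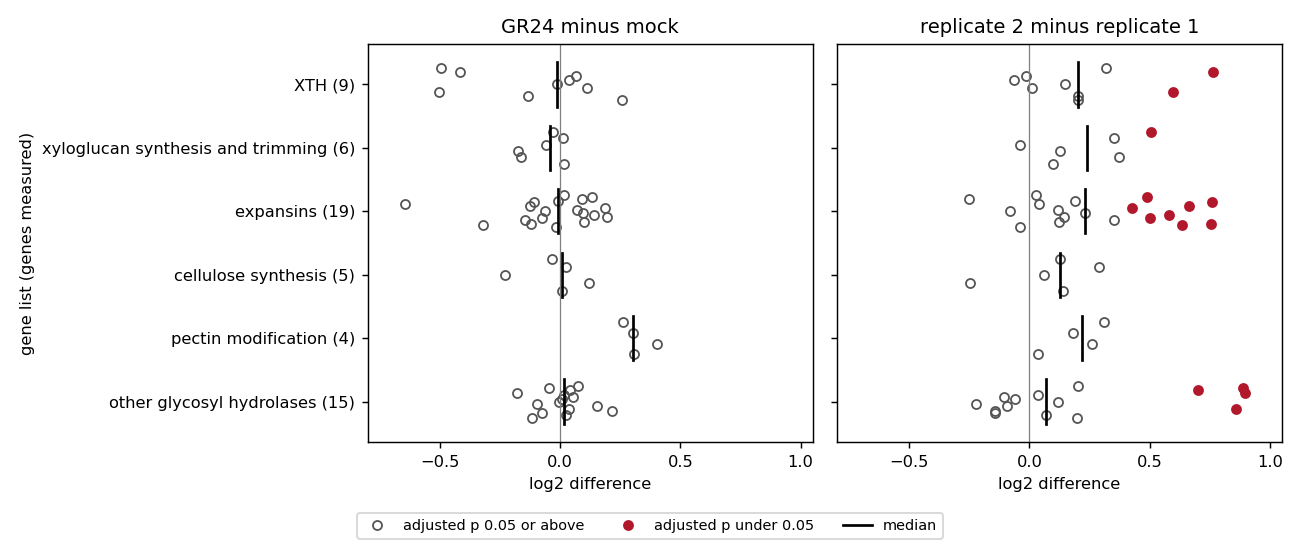
Log2 differences of single genes in the XTH family and 5 cell wall lists for GR24 minus mock (left) and replicate 2 minus replicate 1 (right); filled red circles passed the limma test, open circles did not, and a black bar marks each list's median. On the left no circle is filled, while on the right 2 XTH genes, 1 xyloglucan gene, 8 expansins and 4 hydrolase genes are filled, all above 0.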

How the data were processed

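The deposited values are log2 intensities made by the authors with RMA (per the submitters' processing notes; its version is not given there). RMA subtracts background, equalises the arrays' distributions and summarises each probe set. From 22810 probe sets 64 controls were removed. Symbols of the platform's table were updated through the RefSeq gene table (TAIR10.1), which left 13513 probe sets with 1 gene, 503 with several and 8730 without a name. The design was fitted with limma 3.58.1 in R 4.3.3, and two-sided p-values were adjusted over all 22746 probe sets by Benjamini-Hochberg, treatment and replicate number being both in the model. With 1 residual degree of freedom, the standard errors rest mostly on a prior variance, fitted by maximum likelihood (7.62 prior degrees of freedom, SD 0.107). The code was tested on simulated data. The pairing comes from the series description, and deviations of same-numbered arrays from their group means correlated at 0.712 across probe sets. The residual of a probe set is the disagreement between its pair differences. For GR24 minus mock it spans both preparations, but nothing separates cultures within a preparation, so part of it may be technical. For replicate 2 minus replicate 1 each number stands for a single preparation. Those p-values therefore do not measure how preparations vary.

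Every member was named, with the genes of 5 wall lists that passed (up to 3 by p) or otherwise the 1 with the largest treatment difference, and the 3 genes most like the members with the largest differences. Lists were matched by symbols and synonyms, since the tables used hold no product descriptions. Members, lists and the main design were chosen with earlier results of these data known. Alternatives were no block, limma's default prior, repeated quantile normalization, median centring, removal of the dimmest 20%, an offset of 16, trend and robust moderation, averaged probe sets and each array left out.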

Additional observations from a re-analysis of the deposited data

How the results depend on the processing

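For GR24 minus mock the number of XTH genes called was 0 with the replicate block and 0 without it. It was 2 with limma's default prior and 2 with trend and robust moderation, both with the block. The wall lists gave 0, and 1 under each of those 2 settings. Of all 22746 probe sets, 69 were called with the block and 0 without it. The default prior called 281 of them, and trend and robust moderation 261. For replicate 2 minus replicate 1 the XTH count was 2 with treatment as a block and 1 without it. It was 3 with limma's default prior and 3 with trend and robust moderation, where XTH33 passed too (adjusted p = 0.0453 and 0.0391 in limma). Of all probe sets, 3805 were called with treatment as a block and 2522 without it. The default prior called 4962 of them, and trend and robust moderation 4908. With single arrays left out, in limma fits without a block where the lone array is assumed to vary like the others, it ranged from 0 to 1, and the wall count of 13 ranged from 0 to 12. In such fits no block held treatment constant, so the difference between preparations also contains part of the treatment difference. The cause of the changes in number was not tested. In the same fits the treatment difference of dim members changed sign, from -0.127 to 0.101 for XTH21, from -0.037 to 0.107 for XTH26 and from -0.0657 to 0.201 for XTH29. XTH19 lay between -0.892 and -0.112, XTH32 between -0.804 and -0.0301 and XTH33 between -0.693 and -0.298, all below 0, and these unpaired values also contain the difference between preparations. Between preparations, XTH20 ranged from -0.0435 to 0.0665 and XTH29 from -0.174 to 0.146, and XTH29 was 0.0352 with repeated quantile normalization. Removing the dimmest 20% left XTH21 and XTH26 without a value. No detection calls were used, so how far dim probe sets lie above background is unknown.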
